A study of Mus musculus with 6 samples.

Results

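Small leucine-rich and large matrix proteoglycans were followed in cultured mouse muscle cells as *Bgn*, *Dcn*, *Lum*, *Fmod*, *Ogn*, *Aspn*, *Prelp*, *Vcan*, *Hspg2* and *Agrn*. These 10 genes were chosen by name, and each symbol matched 1 of the 54525 gene rows. RNA-seq had been performed on C2C12, an established mouse myoblast line, as 3 cultures of myoblasts (day 0, D0) and 3 cultures after 5 days of differentiation into myotubes (D5), both wild type and without treatment. The switch from growth medium to medium with little horse serum starts differentiation in this line, so medium, days in culture and cell state changed together and cannot be told apart. All cultures came from 1 line, D5 cultures of it also hold cells that have not fused, and in bulk RNA a change in the number of cells of a type cannot be told apart from a change in RNA per cell.

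Proteoglycans are secreted or membrane proteins that carry long sulfated sugar chains (glycosaminoglycans) on a core protein. The small leucine-rich proteoglycans (SLRPs) bind collagen fibrils and growth factors such as TGF-β and are known mainly as products of connective tissue cells, although muscle cells make several of them. Versican fills the loose matrix together with hyaluronan, and perlecan and agrin carry heparan sulfate in the basement membrane that surrounds each muscle fiber. Agrin also clusters acetylcholine receptors at the neuromuscular junction, an activity that depends on a splice form which counts per gene do not resolve.

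Gene counts per library ranged between 36555048 and 40895840 in myoblasts and between 25449759 and 25811300 in myotubes. Levels are given as CPM, counts per 1000000 counts after TMM scaling, which sets libraries against each other without correcting for gene length. The stages were compared over 16290 genes with the quasi-likelihood test of edgeR, and a gene was called changed at an adjusted p under 0.05. With 3 libraries per group the smallest p of an exact two-sided permutation test is 0.1, so the p-values given here are those of this model. At D5 the muscle genes *Myog*, *Mymk*, *Ckm*, *Acta1* and *Des* were all called higher, except that *Des* (2012 and 3313 CPM, log2 fold change 0.72) was not called without scaling (0.04) or with scaling to the ERCC spike-ins (0.16). *Myog*, the gene of myogenin, rose from 2.76 to 515 CPM. Counts without scaling keep the greater depth of the D0 libraries. Their median log2 fold change over all genes tested was -0.68, with 23.4% of calls higher. Calls without scaling given below carry this depth and are no second result on a gene.

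Of the 10 proteoglycan genes, 9 were called higher at D5 and 1 lower, *Hspg2*. Among all genes tested 82.9% were called in either direction, 42.2% higher and 40.8% lower, so a call as such says little about a gene here, and the sizes differed far more. The numbers of calls in the lists below stand against these same shares. The fitted log2 fold changes ran from -0.21 (*Hspg2*) to 11.43 (*Prelp*) with a median of 5.04, or 4.47 with the genes undetected at D0 set at their lower bounds, against 0.00 for all genes tested. Of all genes tested, 5.43% had a log2 fold change above 4. All 10 genes passed the filter on low counts, but *Lum*, *Fmod* and *Prelp* passed it only through the D5 libraries, so a gene of this kind could only be called higher. In every one of the 10 genes the groups did not overlap, as for 42.2% of all genes tested with D5 above D0 and 41.1% with D5 below.

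*Bgn* encodes biglycan, a class I SLRP with dermatan or chondroitin sulfate chains (ENSMUSG00000031375.17, chromosome X of GRCm38 from 73483602 to 73495933). It had 15.6, 16.8 and 16.8 CPM in the D0 libraries and 1961, 1980 and 2021 CPM in the D5 libraries. Each D5 library was above every D0 library by about the same step, and the spread within a group was small, with means of 16.4 ± 0.698 and 1988 ± 30.8 CPM (SD, n = 3 each). *Bgn* rose 121-fold (6.92 ± 0.0448 on the log2 scale, estimate ± standard error, edgeR adjusted p = 4.0e-40), more than 97.9% of the genes tested.

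*Dcn* encodes decorin, the closest relative of biglycan and known to limit collagen fibril width (ENSMUSG00000019929.16, chromosome 10 from 97479609 to 97518143). It was close to the limit of detection in myoblasts, with counts of 12, 13 and 20, against 6636, 5646 and 5812 in myotubes. The D5 libraries were alike, and D0 replicate 3 was the highest of 3 low values. The means were 0.375 ± 0.105 and 242 ± 19.1 CPM (SD, n = 3 each), a difference of 9.32 ± 0.0905 on the log2 scale (edgeR adjusted p = 4.2e-36).

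*Aspn* encodes asporin, a class I member with a run of aspartates and no sugar chain of the usual kind (ENSMUSG00000021388.14, chromosome 13 from 49544443 to 49567565). Its values were 2.99, 2.71 and 2.38 CPM at D0 and 25.9, 21.7 and 24.3 CPM at D5. The groups lay far apart at low levels. *Aspn* rose 8.90-fold (3.15 ± 0.0901 on the log2 scale, edgeR adjusted p = 5.4e-24).

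The class II SLRPs, which can carry keratan sulfate, were nearly absent from myoblast RNA. *Lum*, the gene of lumican (ENSMUSG00000036446.5, chromosome 10 from 97565128 to 97572703), was at 0 in each D0 library and at 301, 209 and 235 counts in myotubes. *Fmod*, the gene of fibromodulin (ENSMUSG00000041559.7, chromosome 1 from 134037254 to 134048277), also had 0 counts in each D0 library and had 115, 88 and 109 counts at D5. The D0 libraries were the deeper ones, and 0 counts there allow up to 3 counts, 0.0713 to 0.0800 CPM in these libraries. Against that limit set per library *Lum* was at least 132-fold higher at D5, with 9.96 ± 1.81 CPM (SD, n = 3), and *Fmod* at least 55.5-fold higher, with 4.17 ± 0.534 CPM (SD, n = 3). The adjusted p from edgeR was 5.3e-21 for *Lum* and 8.5e-18 for *Fmod*. Both passed the filter only through the D5 libraries, so only a higher call was possible and these p-values do not bear on the direction.

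*Prelp* encodes the third class II member, a protein that binds both heparan sulfate and collagen (ENSMUSG00000041577.5, chromosome 1 from 133910304 to 133921414). Its counts were 2, 0 and 3 in myoblasts, against 3069, 2997 and 3346 in myotubes. Its D5 level, 126 ± 7.27 CPM (SD, n = 3), was far above those of *Lum* and *Fmod*, whose D0 counts were as low. With 5 counts in all at D0 the size of the rise is uncertain, and the ratio of normalized counts was 3021 with a 95% counting interval from 1294 to 9305 (adjusted p = 7.2e-35 from edgeR). *Prelp* too passed the filter only through the D5 libraries, so only a higher call was possible. The fitted log2 fold change of 11.43 was 10.85 without D0 replicate 2, the library at 0, and 12.07 without D0 replicate 3. Of the exonic length of *Prelp*, 9.68% is shared with *Gm15851* on the opposite strand, and the strand setting of the counts is not given in the sources used here.

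*Ogn* encodes osteoglycin (mimecan), a class III SLRP (ENSMUSG00000021390.6, chromosome 13 from 49608046 to 49624501). Unlike the other SLRPs it was already abundant in myoblasts, with 173, 167 and 175 CPM, and it had 850, 876 and 862 CPM at D5. The groups lay far apart for their small spread, with means of 172 ± 3.89 and 863 ± 13.4 CPM (SD, n = 3 each). *Ogn* rose 5.03-fold (2.33 ± 0.0334 on the log2 scale, edgeR adjusted p = 7.5e-32).

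**Figure D1:**
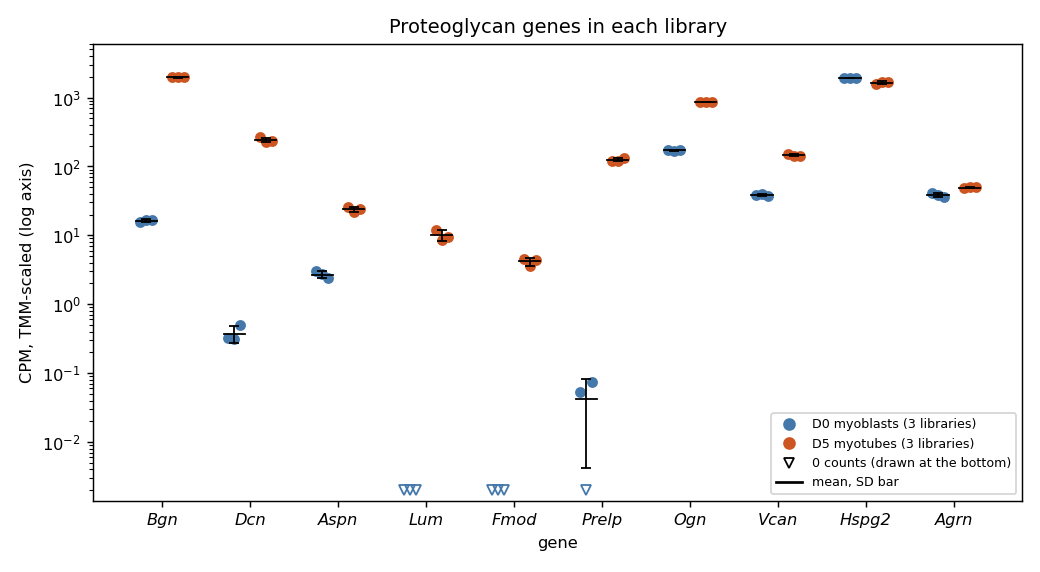
CPM of each proteoglycan gene (log axis) in the 3 D0 libraries (blue) and the 3 D5 libraries (orange), with mean and SD bar, and open triangles for libraries with 0 counts, drawn at the bottom. The 7 SLRP genes and *Vcan* moved up by steps of unequal size, from 3.81-fold for *Vcan* to *Prelp* with its 3021-fold ratio. With this TMM scaling *Hspg2* and *Agrn* stayed within 1.27-fold of their D0 means. The log2 fold change of *Hspg2* was -0.90 without scaling and -0.77, not called, with spike-in scaling.

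*Vcan* encodes versican, the large chondroitin sulfate proteoglycan that binds hyaluronan (ENSMUSG00000021614.16, chromosome 13 from 89655312 to 89742509). It had 39.0, 39.4 and 36.9 CPM at D0 and 154, 144 and 142 CPM at D5. Both groups were tight and far apart, and *Vcan* rose 3.81-fold (1.93 ± 0.0400 on the log2 scale, edgeR adjusted p = 1.1e-27). Counts per gene do not tell its splice forms apart, which differ in the number of attached sugar chains.

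Among the relatives and partners of versican, a list of 12 genes, only 4 passed the filter on low counts, of which 2 were called higher and 1 lower, or 1 higher and 2 lower in counts without scaling and 0 higher and 1 lower with spike-in scaling. *Acan*, the gene of aggrecan, and the link protein gene *Hapln1* had 0 counts in every library, and *Hapln2* had at most 1. *Cd44*, a receptor for hyaluronan, fell from 1590 to 170 CPM (log2 fold change -3.23, adjusted p = 4.7e-35 from edgeR). The hyaluronan synthase gene *Has2* went from 14.5 to 24.4 CPM, and *Hapln4*, another link protein gene, from 6.70 to 16.8 CPM. Their log2 fold changes of 0.75 and 1.33 were both called higher, but with scaling to the ERCC spike-ins neither was (0.19 and 0.77), and that of *Has2* was not in counts without scaling (0.07).

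Of 7 genes of proteases that cut versican, 2 were called higher and 2 lower, and the other 3 had too few counts to be tested. Without the filter on low counts these 3 were called higher as well, on at most 14 counts in a library, which gave 5 higher and 2 lower. *Adamts5* rose from 31.4 to 216 CPM (log2 fold change 2.78, adjusted p = 2.1e-31 from edgeR), and *Adamts1* went from 53.7 to 129 CPM, a log2 fold change of 1.26 that was 0.68 and not called with spike-in scaling. In the opposite direction *Adamts4* fell from 91.1 to 27.2 CPM (-1.74) and *Adamts15* from 2.12 to 0.951 CPM (-1.16).

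The basement membrane members changed least. *Hspg2* encodes perlecan, which links laminin and collagen IV networks (ENSMUSG00000028763.17, chromosome 4 from 137468769 to 137570630), and it had the most counts of the 10 genes at D0. Its values were 1908, 1926 and 1920 CPM at D0 and 1585, 1700 and 1674 CPM at D5. The D5 libraries all lay below the D0 libraries, with D5 replicate 1 the lowest. The D5 level was 86.2% of that at D0, a log2 fold change of -0.21 (95% interval -0.28 to -0.15, adjusted p = 9.3e-07 from edgeR), a call that was lost with spike-in scaling (log2 fold change -0.77, adjusted p = 0.238).

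*Agrn* encodes agrin (ENSMUSG00000041936.18, chromosome 4 from 156165290 to 156197488). It had 41.0, 38.9 and 36.4 CPM at D0 and 48.2, 49.6 and 49.6 CPM at D5. The groups did not overlap after TMM scaling and differed 1.27-fold, a log2 fold change of 0.34 (95% interval 0.25 to 0.44, adjusted p = 7.4e-08 from edgeR), but the sign depended on the scaling. Without scaling, where the median of all genes shifted to -0.68, the log2 fold change of *Agrn* was -0.34, and with spike-in scaling, where that median was -0.58, it was -0.22 and not called. Relative to the median of all genes, *Agrn* was at 0.34 in counts without scaling and at 0.36 with spike-in scaling, and *Hspg2* at -0.22 and -0.20. The ratio of perlecan to agrin transcripts within a library, which no scaling between libraries can change, was 30.2, 32.2 and 34.2 at D0 and 21.3, 22.2 and 21.9 at D5 on the length-scaled level (TPM), so their changes were unequal.

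**Figure D2:**
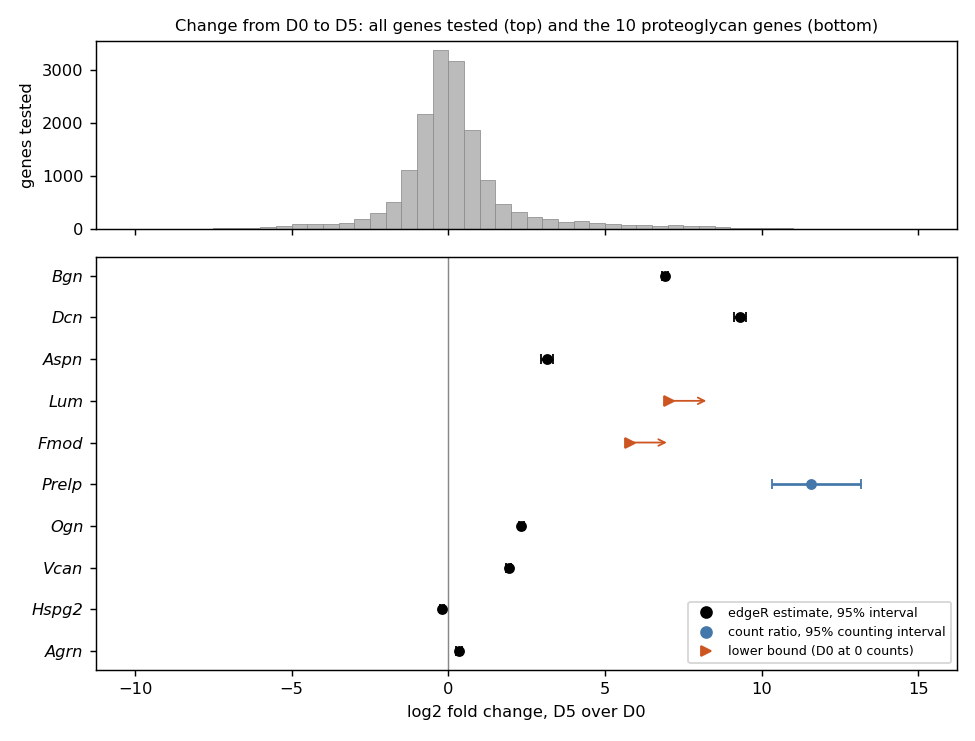
Log2 fold change of D5 over D0 on the horizontal axis, as the number of genes tested per bin (top) and for each proteoglycan gene (bottom) with its 95% interval, the counting interval of the ratio for *Prelp*, and an arrow from the lower bound for *Lum* and *Fmod*. The SLRP genes reach from 2.33 (*Ogn*) to 11.56 (*Prelp*), whereas *Hspg2* at -0.21 and *Agrn* at 0.34, a value below 0 without scaling or with spike-in scaling, lie in the bulk of the distribution.

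Receptors and binding partners of agrin and perlecan were measured in the same libraries. Of 7 such genes, 4 were called higher and 2 lower, and *Col15a1* had at most 5 counts. *Lrp4*, which binds agrin on the muscle membrane, rose from 56.5 to 368 CPM (log2 fold change 2.70), and *Musk*, the kinase that signals with it, rose from 64.6 to 244 CPM (1.92). *Dag1*, the gene of dystroglycan, a receptor of both proteins, rose from 179 to 819 CPM (2.19). The nidogen genes went in opposite directions, since *Nid2* rose from 16.1 to 470 CPM (4.87) and *Nid1* fell from 426 to 179 CPM (-1.25). The adjusted p from edgeR was at most 2.4e-24 for each of these 5 genes.

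To compare genes with each other, counts were divided by exonic length and given as TPM, transcripts per 1000000 transcripts. The length was that of all annotated exons of a gene together, 6099 bases for *Bgn*, 5838 for *Dcn* and 2566 for *Ogn*. It can exceed the length of the transcripts present, so the order, ratios and shares of genes in TPM depend on it. In myoblasts *Hspg2* was the highest at 464 ± 9.06 TPM, followed by *Ogn* at 231 ± 6.81, *Agrn* at 14.4 ± 0.644, *Bgn* at 9.31 ± 0.531, *Vcan* at 9.20 ± 0.248 and *Aspn* at 3.95 ± 0.385 TPM (SD, n = 3 each). The ranges of *Bgn* and *Vcan* overlapped, and *Dcn* and *Prelp* were below 1 TPM. In myotubes *Ogn* stood at 1043 ± 7.47 and *Bgn* at 1011 ± 17.5 TPM, ahead of *Hspg2* at 358 ± 5.95 TPM (SD, n = 3 each). Then came *Dcn* at 129 ± 12.8 TPM and *Prelp* at 108 ± 6.08 TPM, followed by *Aspn* and *Vcan*, whose means of 31.6 and 31.5 TPM differed by less than their spread. *Agrn* at 16.4 TPM, *Lum* at 12.7 TPM and *Fmod* at 3.92 TPM were the lowest.

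Summed over the 10 genes, 732 ± 13.3 TPM at D0 became 2746 ± 36.0 TPM at D5 (SD, n = 3 each). *Hspg2* made up 63.3% of this sum in myoblasts and 13.1% in myotubes, while the 7 SLRP genes together made up 33.4% and 85.2%. Nearly all of the SLRP part at D0 was *Ogn*, since the other 6 genes summed to 13.5 TPM at D0 and 1296 TPM at D5. The ratio of *Ogn* to *Bgn* in TPM was 24.9 ± 1.32 at D0 and 1.03 ± 0.0194 at D5 (SD, n = 3 each). In CPM, without the lengths, *Bgn* was below *Ogn* at D0 (16.4 and 172) and above it at D5 (1988 and 863). The TPM of *Dcn* was 2.38% of that of *Bgn* at D0 and 12.7% at D5. Among all 54525 gene rows ordered by TPM, *Bgn* moved from place 9350 to place 94, *Ogn* from 588 to 87 and *Dcn* from 19065 to 1033, whereas *Hspg2* was at 276 and then at 332.

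**Figure D3:**
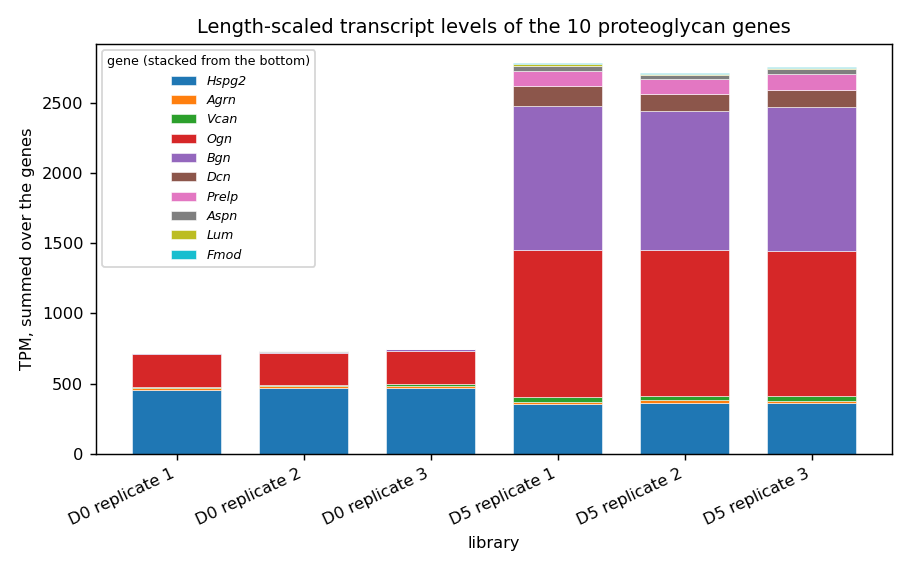
TPM of the 10 genes stacked for each library, with the D0 libraries on the left and the D5 libraries on the right. *Hspg2* and *Ogn* fill the D0 bars, which end near 732 TPM, and *Ogn*, *Bgn*, *Hspg2*, *Dcn* and *Prelp* fill the D5 bars, which end near 2746 TPM.

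Several of the genes lie beside each other. On chromosome 10 *Dcn* and *Lum* are separated by 47.0 kb and followed by *Kera* and *Epyc*, the genes of keratocan and epiphycan. *Dcn* and *Lum* were called higher, but *Kera* had 0 counts in every library and *Epyc* 2 counts in 1 D5 library and 0 in the others. On chromosome 13 the order is *Ecm2*, *Aspn*, *Omd* and *Ogn*, all on the plus strand, and all 4 genes were called higher. *Omd*, the gene of osteomodulin, which lies 15.2 kb before *Ogn*, rose from 0.347 to 19.5 CPM (log2 fold change 5.78, adjusted p = 1.1e-26 from edgeR), and *Ecm2* went from 3.69 to 7.70 CPM (1.06, but 0.45 and not called with spike-in scaling). *Cenpp*, a centromere gene on the minus strand whose span covers this group, fell from 37.0 to 1.38 CPM (-4.74), and it shares 0.297% of the exonic length of *Aspn*.

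On chromosome 1 *Prelp* lies 2.3 kb from *Optc*, the gene of opticin, and 115.8 kb from *Fmod*. *Optc* had 42, 47 and 50 counts at D0 and 19, 13 and 18 counts at D5 and was called lower (log2 fold change -0.79, adjusted p = 0.00369 from edgeR), while *Prelp* and *Fmod* went from 3 counts or fewer in each D0 library to 88 or more in each D5 library. *Vcan* lies 43.7 kb from *Hapln1*, which had no counts.

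**Figure D4:**
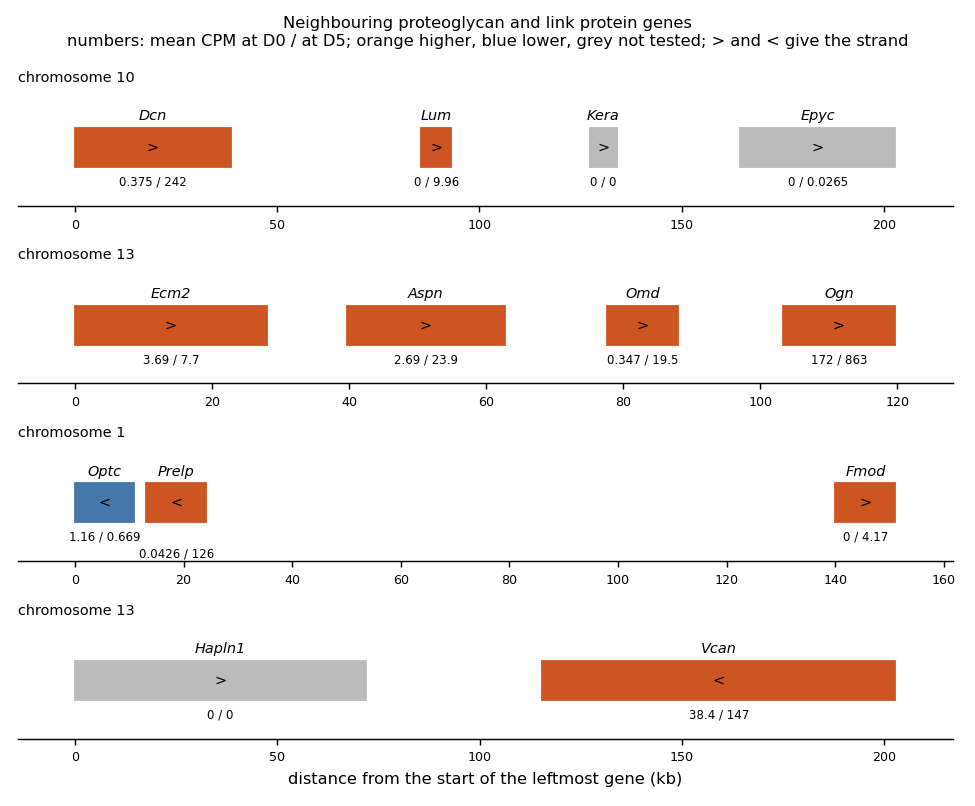
Order, length and spacing of neighbouring proteoglycan genes, with distance in kb from the start of the leftmost gene, mean CPM at D0 and D5 under each gene, and color for the call. In the top row *Dcn* and *Lum* were called higher beside the undetected *Kera* and *Epyc*, and in the third row *Prelp* and *Fmod* were called higher and *Optc* lower.

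The stretch before the transcription start is shown for 2 genes that rose from different levels (*Bgn* and *Ogn*), for *Prelp*, and for *Hspg2*, whose level changed little with TMM scaling. Each is the 250 bases before the RefSeq start on GRCm38.p6, read 5′ to 3′ on the strand of the gene. Capitals mark E-boxes (CANNTG, the letters that myogenic bHLH factors such as MyoD and myogenin bind) and TATAAA on either strand.

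*Bgn* (chrX:73483351-73483600, plus strand): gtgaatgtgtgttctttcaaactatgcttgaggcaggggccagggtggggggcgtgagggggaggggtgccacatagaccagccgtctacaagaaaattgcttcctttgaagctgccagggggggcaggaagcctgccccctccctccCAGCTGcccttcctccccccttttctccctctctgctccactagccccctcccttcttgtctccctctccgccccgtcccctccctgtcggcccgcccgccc
*Ogn* (chr13:49607765-49608014, plus strand): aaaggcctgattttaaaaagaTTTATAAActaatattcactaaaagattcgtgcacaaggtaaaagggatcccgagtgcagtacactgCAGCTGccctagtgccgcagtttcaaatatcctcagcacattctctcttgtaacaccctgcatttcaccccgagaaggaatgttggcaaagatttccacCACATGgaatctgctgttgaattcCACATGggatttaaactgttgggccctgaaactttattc
*Prelp* (chr1:133921402-133921651, minus strand): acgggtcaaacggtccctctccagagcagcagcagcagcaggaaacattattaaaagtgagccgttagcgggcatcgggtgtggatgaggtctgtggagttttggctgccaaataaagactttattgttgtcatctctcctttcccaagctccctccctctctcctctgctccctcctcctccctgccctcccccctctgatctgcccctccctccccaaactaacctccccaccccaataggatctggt
*Hspg2* (chr4:137468553-137468802, plus strand): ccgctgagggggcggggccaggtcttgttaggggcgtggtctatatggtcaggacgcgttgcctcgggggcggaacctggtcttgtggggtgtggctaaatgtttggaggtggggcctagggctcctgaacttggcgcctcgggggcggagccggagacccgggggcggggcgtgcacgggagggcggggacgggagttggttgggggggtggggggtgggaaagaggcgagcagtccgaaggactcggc

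Windows of this kind were listed for 8 of the 10 genes, with 2 starts for *Agrn* and none for *Dcn* and *Lum*. E-box letters were found in 6 of these 9 windows, 66.7%, against 66.2% of all 32851 windows of the same length, a like share. *Bgn* has 1 E-box and *Ogn* has 3, and each has 1 that reads CAGCTG, found in 13% of all windows. *Prelp*, which rose, and *Hspg2*, which changed little with TMM scaling, have no E-box in this window. TATAAA was found in 2 windows, those of *Ogn* and *Aspn*, against 12.4% of all, and the 2 matches in *Ogn* overlap on opposite strands. GC boxes (GGGCGG on either strand) were found in 5 of the 9 windows, 55.6%, against 32.7% of all windows. The *Hspg2* window holds 5 of them and that of *Bgn*, which rose, holds 3. The *Agrn* windows hold 12 and 2, and the *Vcan* window holds 2. The GC content is 70% for *Hspg2* and 64.4% for *Bgn*, against a median of 52.4% over all windows. Neither the AP-1 letters (TGANTCA) nor a MEF2 motif was found in any of the 9 windows.

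Of 11 further members of the family, 5 were called higher, 2 lower and 4 were not tested, with a median log2 fold change of 0.96 over the 7 tested. Without scaling 4 were called higher and 3 lower (median 0.27), and with spike-in scaling 1 higher and 2 lower (median 0.36). *Omd* had the largest change. *Chadl* went from 1.21 to 3.78 CPM (log2 fold change 1.64, or 1.09 and not called with spike-in scaling), and *Nyx* fell from 0.524 to 0.160 CPM (-1.69). *Kera*, *Epyc* and *Chad* had 3 counts or fewer in every library.

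Of 12 genes of cell-surface proteoglycans, 8 were called higher, 1 lower and 3 were not tested, while without scaling 5 were called higher and 4 lower and with spike-in scaling 2 higher and 1 lower. *Tgfbr3*, the gene of betaglycan, a TGF-β co-receptor, rose from 4.21 to 57.6 CPM (log2 fold change 3.77). *Sdc3*, a syndecan known from muscle precursor cells, fell from 276 to 24.4 CPM (-3.50, adjusted p = 2.2e-33 from edgeR), while *Sdc2* went from 137 to 447 CPM (1.71, or 1.15 and not called with spike-in scaling). *Gpc4* had 1 count at D0 and 11, 14 and 19 counts in the D5 libraries, a ratio of 70.6 with a 95% counting interval from 12 to 2851. *Gpc2*, *Gpc3* and *Gpc5* had 3 counts or fewer in every library.

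Genes of the enzymes that build the sugar chains were called in both directions, as were all genes tested (42.2% higher and 40.8% lower). Of the 11 linkage and precursor genes, 7 were called higher and 2 lower with TMM scaling, with a median log2 fold change of 0.19. Unscaled counts, which keep the greater depth of the D0 libraries, gave 1 higher and 7 lower, and spike-in scaling 1 higher and 0 lower. *Papss2*, which makes the sulfate donor, had 4, 5 and 7 counts at D0 and 18, 18 and 23 at D5 (log2 fold change 2.53), while the more abundant *Papss1* went from 54.0 to 35.5 CPM (-0.61). *B3gat3* and *Fam20b*, which complete and phosphorylate the linkage sugars, had log2 fold changes of 0.71 and 0.67, with 0.03 and -0.01 without scaling and 0.14 and 0.11, not called, with spike-in scaling. *Papss1* was at -1.19 and not called with spike-in scaling, and *Xylt1* had 1 count in all.

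Of 16 genes for chondroitin and dermatan sulfate chains, the kind carried by biglycan, decorin and versican, 5 were called higher, 8 lower and 2 without a call, with 1 not tested (*Chsy3*), while without scaling 3 were called higher and 11 lower and with spike-in scaling 3 higher and 4 lower. The sulfotransferase gene *Chst3* fell from 60.4 to 2.26 CPM (log2 fold change -4.74, adjusted p = 7.0e-31 from edgeR), whereas *Chst7* rose from 0.582 to 8.21 CPM (3.80) and *Chst15* from 3.20 to 24.5 CPM (2.94). *Chst13* had 1 count at D0 and 93, 95 and 70 counts at D5, a ratio of 414 with a 95% counting interval from 73.7 to 16415. *Chsy1*, which extends the chain, fell from 137 to 48.2 CPM (-1.51), and *Dse*, an epimerase that turns chondroitin into dermatan sulfate, had 35.5 and 52.4 CPM (0.56), but -0.12 without scaling and -0.02 with spike-in scaling, and was called under neither.

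Of 19 genes for heparan sulfate, the chain of perlecan and agrin, 7 were called higher, 10 lower and 1 without a call, and *Hs6st3* had 0 counts in every library. The largest rises were those of *Extl1*, a glycosyltransferase of the exostosin family, from 0.477 to 14.7 CPM (log2 fold change 4.93), and of the sulfotransferase gene *Hs3st1*, from 1.40 to 22.4 CPM (3.99). Its relative *Hs3st3a1* fell from 12.4 to 1.86 CPM (-2.74), and *Sulf2*, which removes sulfate from finished chains, fell from 252 to 50.9 CPM (-2.31, adjusted p = 6.7e-30 from edgeR). *Ext1*, a subunit of the chain polymerase, fell from 286 to 147 CPM (-0.96). Without scaling 2 of the 19 were called higher and 14 lower, and with spike-in scaling 2 higher and 6 lower.

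Biglycan is secreted with a propeptide that BMP1 and related proteases remove. Of 5 genes for these proteases and for procollagen C-proteinase enhancers (*Pcolce* and *Pcolce2*), which are named for procollagen and not for biglycan, 2 were called higher and 2 lower. *Bmp1* fell from 384 to 141 CPM (log2 fold change -1.45), while *Tll1*, a related protease, rose from 0.167 to 3.52 CPM (4.37). *Pcolce* rose from 54.1 to 286 CPM (2.40) and *Pcolce2* fell from 39.8 to 6.61 CPM (-2.59), with an adjusted p of at most 2.9e-16 from edgeR for these 4 genes.

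**Figure D5:**
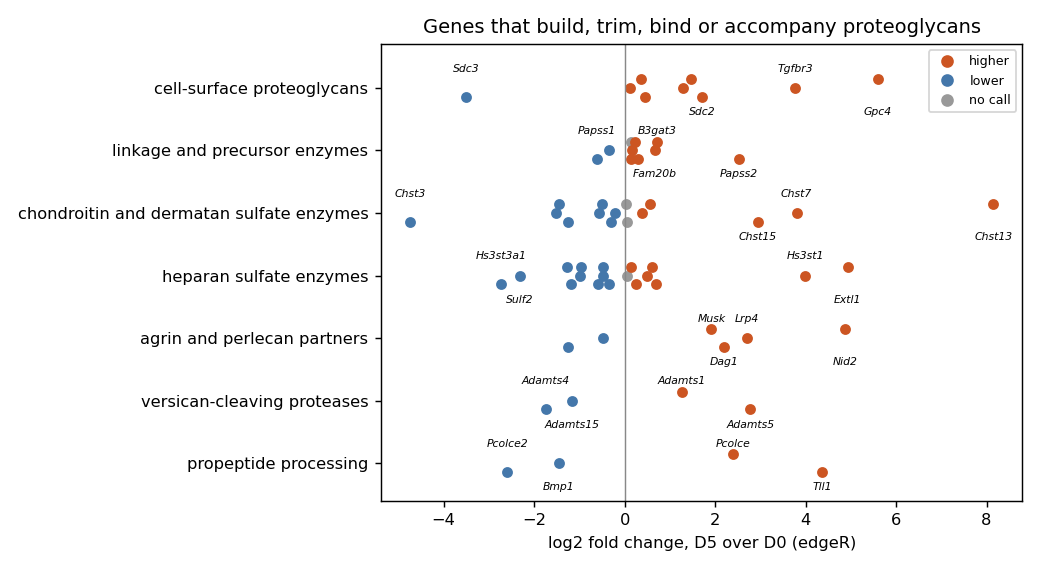
Log2 fold change of D5 over D0 for the genes tested in 7 lists, colored by call in edgeR with TMM scaling, with the 4 largest changes of each list named. The sugar chain lists lie on both sides of 0, as do all genes tested (42.2% called higher and 40.8% lower). *Chst3* is at -4.74, and the points of *Chst13* and *Gpc4* rest on 1 count at D0.

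Markers of other cell types were checked because SLRPs are also products of fibroblasts and tendon cells. Of 9 fibroblast markers, 6 were called higher and none lower, against 5 higher and 2 lower without scaling, 6 higher and 1 lower with total counts, and 5 higher and none lower with spike-in scaling. Their summed level lay between 85.4 and 88.4 CPM in myoblasts and between 619 and 637 CPM in myotubes. *Pdgfrb* rose from 42.8 to 488 CPM, *Cd34* from 2.15 to 49.7 CPM, *Pdgfra* from 1.04 to 23.9 CPM, *Dpt* from 0.0822 to 20.1 CPM and *Pi16* from 0.174 to 2.94 CPM, while *Ly6a* had 34.9 and 33.3 CPM without a call. *Twist2* had 5.35 and 6.83 CPM, a log2 fold change of 0.35 that was called higher. That change was -0.33 and called lower without scaling, and -0.24 without a call with spike-in scaling. *Gm29100* on the opposite strand shares 46.5% of the exonic length of *Twist2*. *Thy1* had 1 count in 1 D0 library and 0 in the others, and *Tcf21* had 0 in every library. Of 6 tendon and cartilage markers, 3 were called higher, namely *Mkx*, *Scx* and *Sox9*, and the summed level went from between 138 and 142 CPM to between 279 and 288 CPM. *Scx* had 88.2 CPM in myoblasts and 212 CPM in myotubes, a call lost with spike-in scaling. *Sox9* turned negative and was called lower without scaling (-0.26), and was negative without a call with spike-in scaling (-0.15). *Tnmd*, *Col2a1* and *Comp* had 10 counts or fewer in every library. *Pdgfrb*, *Cd34*, *Pdgfra*, *Dpt* and *Pi16* thus rose together with the SLRP genes, and the part of such cells in the result was not tested. Of 5 endothelial, 4 macrophage and 4 adipocyte markers only 2, 1 and 1 were tested, and none of these was called higher. The other 3 of each list had too few counts to be called in either direction. Their summed levels lay between 3.31 and 3.59 CPM (endothelial), 3.16 and 3.39 CPM (macrophage) and at 18.3 CPM or more (adipocyte) in myoblasts, and at most at 0.884, 2.64 and 8.31 CPM in myotubes. *Kdr*, *Tek*, *Cd68* and *Pparg* were called lower, although the call of *Cd68* was lost with spike-in scaling, while *Emcn*, *Adgre1* and *Cfd* had 0 counts in every library and *Cdh5*, *Ptprc*, *Adipoq* and *Plin1* had 3 or fewer.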

How the data were processed

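RNA from 3 cultures each of C2C12 myoblasts (D0) and myotubes (D5) was sequenced, and the authors deposited raw counts per gene from featureCounts, 1 file per library, aligned to GRCm38. The labels name Tophat2 and the paper's methods HISAT2. The strand setting and the handling of reads with several matches are not given in the sources used here. The 92 ERCC spike-in rows (0.720% to 2.09% of counts) and a row without a name that equalled the column total (50% of each column with it) entered neither library sizes nor tests.

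Groups came from the sample titles. Scaling (TMM), CPM and testing (quasi-likelihood) used edgeR 4.0.16 (R 4.3.3) after filterByExpr, with Benjamini-Hochberg adjustment over 16290 genes. The standard error of a change was its size divided by the square root of F. TPM, positions and overlaps used the exons of the GENCODE M21 annotation, whose identifiers matched 99.9% of gene rows. Other named genes also share exonic length with a gene on the opposite strand, such as *Twist2* (46.5%), *Epyc* (40.6%), *Hs3st3a1* (32.9%), *Chst15* (17.9%) and *Ckm* (15.5%). A library at 0 was given a limit of 3 counts, and intervals and limits cover counting error only. The 10 genes and the lists were chosen with earlier results of these data known. The genes named in a list are up to 4 called ones with the largest changes and those at 3 counts or fewer in every library, and a few others of the lists or beside the members, such as *Nid1*, *Ext1*, *Chsy1*, *Dse*, *Twist2*, *Optc*, *Cenpp* and *Pdgfrb*, were named after their values were seen. Alternatives were DESeq2 1.42.0, upper-quartile, total-count, no and ERCC spike-in scaling, no filter, a minimum of 10 counts in all libraries, leaving out each library, and the replicate number as a block. The test scripts were tested on simulated data. Replicates differed by more than sampling noise (chi-square over degrees of freedom between 2.28 and 3.71), and p-values measure the spread between these cultures, which may be technical. One further marker list is not reported here.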

Additional observations from a re-analysis of the deposited data

How the results depend on the processing

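The calls and directions of the SLRP genes and *Vcan* were the same under the 14 alternatives, except that *Lum*, *Fmod* and *Prelp* were not tested with at least 10 counts in every library, where the median log2 fold change of the 7 genes left was 2.33. Without scaling 2 of the 10 genes were called lower, because *Agrn* was at -0.34, and the median was 4.35. With ERCC spike-in scaling 5560 genes were called, none of the 10 was called lower (0), the median was 4.46, *Hspg2* lost its call and *Agrn* was at -0.22. Of all calls 50.8% were higher with TMM, 23.4% without scaling and 32.6% with spike-in scaling. Among the other named genes the sign changed without scaling for *Fam20b* (-0.01), *Sox9* (-0.26), *Dse* (-0.12) and *Twist2* (-0.33). *Sox9* and *Twist2* were then called lower, and *Fam20b*, *Dse*, *B3gat3*, *Has2* and *Des* lost their calls. With spike-in scaling the sign changed for *Sox9* (-0.15), *Dse* (-0.02) and *Twist2* (-0.24). There these 3 and *Chadl*, *Ecm2*, *Hapln4*, *Has2*, *Adamts1*, *Sdc2*, *B3gat3*, *Fam20b*, *Papss1*, *Scx*, *Cd68* and *Des* lost their calls. Spike-ins made up 0.859%, 0.828% and 0.726% of counts in the D0 libraries and 1.2%, 0.72% and 2.09% in the D5 libraries. The spike-in share thus differed most among the D5 libraries, and scaling to it carries that spread into every gene. The cause of the changes was not tested, apart from the depth of the D0 libraries in unscaled counts.

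Leaving out each library gave 13151 to 13221 calls over all genes, 9 higher and 1 lower proteoglycan gene each time. Without D0 replicate 1, which held its only D0 count, *Chst13* was at 9.76 in place of 8.15, *Gpc4* was at 7.18 without D0 replicate 2, *Mkx* at 5.02 in place of 4.14 without D0 replicate 3, and *Tek* at -2.22 in place of -1.49 without D5 replicate 3. The replicate numbers pair no known batch. Deviations of same-numbered libraries correlated at 0.027, 0.104 and 0.047, each the best match of its number, which is a hint from the data only. With the replicate number as a block 13558 genes were called, and no call of the 10 genes changed. With the counts of *Lum* and *Fmod* at 0 in D0, depth sets only a lower bound.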
